A study of Mus musculus with 15 samples.

Results

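The 9 genes described here, Arg1, Arg2, Ass1, Asl, Odc1, Srm, Oaz1, Azin1 and Sat1, encode enzymes of arginine and polyamine metabolism and their protein regulators. They were chosen by name for their place in the pathway, with earlier results of these data known. Each was matched to array features annotated with that symbol alone. Each had 1 such feature, so 9 of the 22180 genes of the table are described, and all 9 were among the 16257 genes tested. Levels are log2 values, so a difference of 1 is a doubling of array signal, and levels of different genes are not compared because each feature has its own probes.

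The RNA came from group 2 innate lymphoid cells (ILC2s) of mouse lung, lymphocytes without antigen receptors that make type 2 cytokines. Effector adult females and effector adult males had received IL-33 intranasally for 3 days, and their cells were taken 1 day later. Naive adult females and naive adult males were 8 weeks old, and naive neonates were 10 days old. Each of these 5 groups had 3 arrays, and the labels call the 3 biological replicates. The labels leave out the age of the effector adults, the strain, the sex of the neonates, the number of mice per array and the sorting gate. No group is labelled as dosed without IL-33, so dosing and IL-33 cannot be told apart.

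Arginase splits arginine into urea and ornithine. Ornithine decarboxylase turns ornithine into putrescine, which spermidine synthase and spermine synthase extend to spermidine and spermine. These polyamines bind RNA and DNA, are needed for cell growth, and supply spermidine for the hypusine modification of the translation factor eIF5A. Cells hold the pathway in check with antizyme, which sends ornithine decarboxylase to the proteasome, while antizyme inhibitor binds antizyme and releases the enzyme. Lung ILC2s are known to express arginase 1 at rest, and the enzyme supports their proliferation in type 2 inflammation.

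The transcripts of spermidine synthase (Srm), ornithine decarboxylase (Odc1), antizyme inhibitor (Azin1) and arginase 1 (Arg1) were higher in effector than in naive adult ILC2s. That of the catabolic acetyltransferase (Sat1) was lower, but the Sat1 call ended in 5 of 25 alternatives and was not made in either sex alone. Neonatal cells had more Azin1 transcript than naive adults and no called difference from effector adults. Odc1 was called the same way, but that call against naive adults ended in 14 of 27 alternatives. Srm was higher in effector adults than in neonates. Ass1, which encodes a citrulline-consuming enzyme, was higher in neonates than in either adult state, where its signal was near background. The Ass1 call against naive adults ended in 5 of 27 alternatives.

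Upstream sequence shows what lies in front of genes whose transcripts differed here. RefSeq promoter windows of 300 bases on build GRCm38.p6, which run from 250 bases before to 50 bases after a transcript start, were at hand for 4 of the 9 genes, Odc1, Ass1, Sat1 and Oaz1. The stretches of the first 3 that end at the last base before the annotated gene are printed, since these genes were called in at least 1 comparison below. They lie at chr12:17544623-17544807 on the plus strand for Odc1, chr2:31470020-31470269 on the plus strand for Ass1 and chrX:155216450-155216699 on the minus strand for Sat1, and are written 5′ to 3′ on the gene's strand. Capitals mark matches on either strand to the motifs searched, which were CACGTG (the E-box bound by Myc and its relatives), GGGCGG (the GC box bound by Sp factors), TATAAA and the STAT6-type motif, which is TTC and GAA with any 4 bases between them.
Odc1: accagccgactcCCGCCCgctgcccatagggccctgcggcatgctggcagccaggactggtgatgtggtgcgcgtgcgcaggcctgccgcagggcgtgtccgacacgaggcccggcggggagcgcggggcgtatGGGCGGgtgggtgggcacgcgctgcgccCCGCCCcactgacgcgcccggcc
Ass1: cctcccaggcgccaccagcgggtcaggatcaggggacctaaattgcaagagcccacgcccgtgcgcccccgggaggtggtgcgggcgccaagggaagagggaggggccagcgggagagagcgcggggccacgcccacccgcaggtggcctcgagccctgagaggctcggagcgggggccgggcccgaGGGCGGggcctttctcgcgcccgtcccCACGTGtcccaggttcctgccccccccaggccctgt
Sat1: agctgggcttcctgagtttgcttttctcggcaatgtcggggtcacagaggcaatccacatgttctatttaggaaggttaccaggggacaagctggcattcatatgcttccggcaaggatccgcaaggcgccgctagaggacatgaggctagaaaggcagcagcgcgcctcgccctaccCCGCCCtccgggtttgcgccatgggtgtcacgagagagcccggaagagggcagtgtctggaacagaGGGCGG

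The printed Odc1 stretch held 3 GC boxes, that of Sat1 held 2, and that of Ass1 held 1 GC box and 1 E-box. The whole windows of 300 bases held 4 GC boxes for Odc1 and no further match for Ass1 or Sat1. Over all 32851 promoter windows of 300 bases, which are longer than the stretches printed, 35.7% held a GC box, 7.15% an E-box, 13.6% TATAAA and 6.95% the STAT6-type motif. The motifs do not overlap in these stretches. The Odc1 and Ass1 stretches were rich in G and C, at 77.8% and 75.6% of bases, against 59.6% for Sat1. A match describes these letters and does not show binding.

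The arrays had median levels between 4.44 and 4.64, and these medians separated the adult states. They ran from 4.44 to 4.50 on effector arrays, from 4.56 to 4.64 on naive adult arrays and from 4.50 to 4.63 on neonatal arrays. The mean correlation of an array with the others of its group was highest in effector females (0.967 to 0.972) and lowest in naive males (0.912 to 0.914) and neonates (0.909 to 0.920). The 10 measured ILC2 genes lay above the background range in every state. Of these, 3 were higher and 2 lower in effector than in naive adults, where 23.7% and 10.9% of all genes were. In naive adults 1 was higher and 3 were lower than in neonates, where 4.12% and 6.04% of all genes were. Il13 averaged 10.57 in effector adults, 7.504 in naive adults and 9.87 in neonates, and Il7r 10.60, 11.71 and 11.05. Gata3, the factor that specifies ILC2s, averaged 8.72 ± 0.18 in effector adults, 8.83 ± 0.22 in naive adults (SD, n = 6 each) and 8.75 ± 0.07 in neonates (SD, n = 3). Il1rl1 and Areg had no feature with their symbol alone. Bulk RNA does not separate a change in the share of cells that express a gene from a change per cell.

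As a measure of background, 1405 features of olfactory and vomeronasal receptor genes, not expected in lymphocytes, gave an upper quartile of 3.35 in effector adults, 4.07 in naive adults and 3.71 in neonates. The group means of all 9 genes lay above it. Over only the 388 of these features that passed the filter for testing, the upper quartile was 4.35 in effector adults, 5.22 in naive adults and 4.68 in neonates, a bound added after the values were seen. Arg2 in every state, and Ass1 in effector and naive adults, lay below that second bound, so their values are near the background of these arrays.

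Markers of other cells moved with some comparisons, and their part in the results below was not tested. Macrophages are another source of arginase 1. Of 12 macrophage markers 11 were measured, and their levels summed to 46.8 to 50.7 on effector arrays, 46.1 to 51.9 on naive adult arrays and 48.7 to 53.4 on neonatal arrays. Of 10 tested macrophage markers 1 was higher and 2 were lower in effector than in naive adults, where 23.7% and 10.9% of all genes were. Cd68 averaged 6.22 ± 0.16 in effector adults, 5.59 ± 0.42 in naive adults and 6.31 ± 0.08 in neonates. Retnla averaged 5.06 ± 1.87, 3.58 ± 0.47 and 5.66 ± 0.82 in the same groups (SD, n = 6, 6 and 3). For both, as for Arg1, the naive adult mean was the lowest of the 3. Other markers of the list had lower means in effector than in naive adults. Adgre1, Mrc1, Marco and Lyz2 averaged 3.97, 3.94, 3.94 and 3.48 in effector adults, below their naive adult means of 4.45, 4.51, 4.29 and 4.13. All of these means lay below the second background bound, 4.35 in effector and 5.22 in naive adults. The first bound was also lower in effector (3.35) than in naive adults (4.07), so no direction is read from these markers. The naive adult mean of Retnla lay below both bounds. Chil3, an abundant transcript of alveolar macrophages, lay in the background range in all 3 states. For the endothelial list, 4 of 7 tested markers were lower in effector than in naive adults, where 10.9% of all genes were, with sums of 31.7 to 34.1 in effector adults and 32.8 to 39.0 in naive adults. For the mast cell and basophil list, 3 of 4 tested markers were lower in naive adults than in neonates, where 6.04% of all genes were. In that list 2 of 4 were also lower in effector adults than in neonates, where 5.93% of all genes were. Its 7 measured markers summed to 27.9 to 33.4 in effector adults, 28.4 to 29.9 in naive adults and 32.3 to 37.7 in neonates. For the T cell list, 2 of 6 tested markers were lower in effector than in naive adults, where 10.9% of all genes were. Also 2 of 6 were lower in effector adults than in neonates, where 5.93% of all genes were. The T cell list summed to 31.0 to 32.8 in effector adults, 33.1 to 34.7 in naive adults and 34.8 to 36.5 in neonates. The fibroblast list, with 3 of 3 tested markers lower in effector adults than in neonates, where 5.93% of all genes were, and 0 of 3 lower in naive adults than in neonates, summed to 20.2 to 21.0 in effector adults, 20.2 to 22.0 in naive adults and 22.6 to 23.95 in neonates. Of 6 tested epithelial markers 1 was lower in naive adults and 1 in effector adults than in neonates, where 6.04% and 5.93% of all genes were. The epithelial list summed to 28.5 to 32.7 in effector adults, 29.4 to 33.2 in naive adults and 31.8 to 34.8 in neonates. Its alveolar gene Sftpc averaged 4.84 ± 0.44 in effector adults, 5.53 ± 0.99 in naive adults and 7.51 ± 0.59 in neonates (SD, n = 6, 6 and 3).

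**Figure D1:**
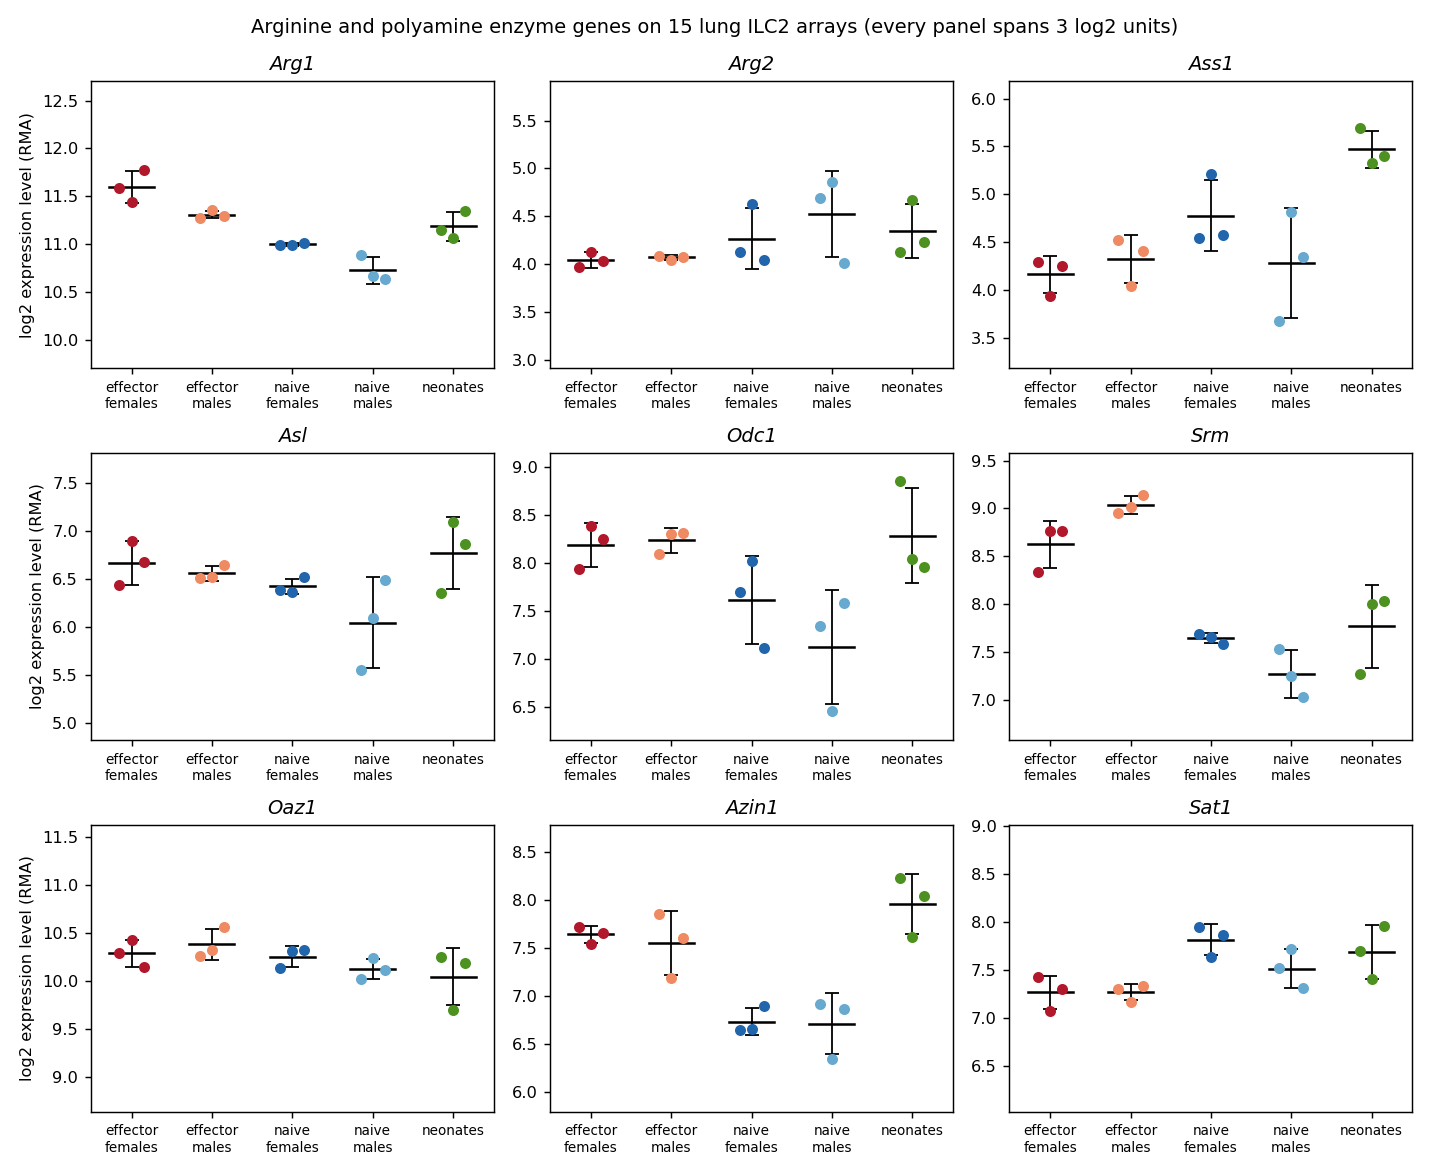
Log2 expression level (vertical axis) of the 9 genes on each of the 15 arrays, by group (horizontal axis). Points are arrays, horizontal lines are group means and bars are SD (n = 3), and every panel spans the same 3 log2 units. Srm and Azin1 of all 6 effector arrays lie above all 6 naive adult arrays, and Ass1 of the 3 neonatal arrays lies above every adult array.

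The first comparison asks how activation in the adult lung relates to these transcripts. Called means an adjusted p under 0.05 in limma over all genes. Ranges over alternatives cover those that keep this rule, and asking also for 1 log2 unit left only Srm of the 9 genes in the first comparison. Of the 9 genes, 4 were called higher and 1 lower in effector than in naive adults, where 23.7% of all genes tested were called higher and 10.9% lower. The median difference was 0.38 over the 9 genes and 0.03 over all genes tested. When each array was centred on its own median, the median over all genes moved to 0.17 and the share of higher calls among all calls moved to 83.0%, against 68.5% as deposited, so small differences depend on the scaling. The figures over all genes also depend on dim genes. With the filter at percentile 60, which Arg2 did not pass, the median over all genes was 0.20. Of 11237 genes then tested, 5079 were called, 3843 of them higher.

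Arg1 encodes the cytosolic arginase. Its level was 11.28 at the lowest, 11.40 at the median and 11.78 at the highest of the 6 effector arrays, against 10.63, 10.94 and 11.01 on the 6 naive adult arrays. The states did not overlap. Arg1 was higher in effector cells by 0.59 ± 0.11 (SE, n = 6 arrays each), a 1.51-fold difference (limma adjusted p = 5.0e-04), and by 0.54 to 0.73 under the alternatives, all called. In neonates it was 11.14, 11.06 and 11.35, between the means of effector (11.45 ± 0.19, SD) and naive adults (10.86 ± 0.17). Neither neighbour in that order was called, with 0.27 ± 0.13 for effector adults minus neonates (adjusted p = 0.153) and -0.32 ± 0.13 for naive adults minus neonates (adjusted p = 0.129). Both calls appeared with a trended and robust prior (adjusted p = 0.0426 and 0.0302).

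Arg2 encodes the mitochondrial arginase. Its level ran from 3.97 to 4.13 on effector arrays and from 4.02 to 4.86 on naive adult arrays, and was 4.13, 4.67 and 4.24 in neonates. The ranges overlapped throughout, and only 9 of 15 arrays lay above percentile 40 of the array. The difference between effector and naive adults was -0.34 ± 0.16 and was not called (adjusted p = 0.112, 95% interval -0.68 to -0.0006). It was called with array weights, at -0.35 (adjusted p = 0.0458), without naive male array 3, at -0.46 (adjusted p = 0.0188), and without the 3 arrays least correlated with their group, at -0.51 (adjusted p = 0.0155). The naive adult spread came from 3 arrays at or above 4.63, naive female array 2 and naive male arrays 1 and 2, while the others lay at 4.13 or below.

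Ass1 and Asl rebuild arginine from citrulline, the first joining citrulline to aspartate and the second splitting the product. Ass1 was 3.94, 4.27 and 4.52 at the lowest, median and highest effector array, 3.68, 4.56 and 5.21 at those of naive adults, and 5.69, 5.32 and 5.40 in neonates. Every neonatal array lay above every adult array, while the adult states overlapped. Asl was 6.43, 6.58 and 6.89 on effector arrays, 5.54, 6.38 and 6.52 on naive adult arrays, and 6.36, 7.09 and 6.86 in neonates, with overlap between all states. Effector minus naive adults was -0.28 ± 0.19 for Ass1 (adjusted p = 0.259, 95% interval -0.68 to 0.11) and 0.38 ± 0.16 for Asl (adjusted p = 0.0876, 95% interval 0.03 to 0.73), and neither was called. Asl was called after centring, at 0.52 (adjusted p = 0.0233), with array weights, at 0.38 (adjusted p = 0.0413), and without naive male array 3, at 0.49 (adjusted p = 0.0242). Ass1 was called without the 3 arrays least correlated with their group, at -0.55 (adjusted p = 0.0324).

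Odc1 encodes the rate-limiting enzyme of polyamine synthesis. It was 7.94 at the lowest, 8.28 at the median and 8.39 at the highest effector array, against 6.45, 7.46 and 8.02 on naive adult arrays. The SD was 0.17 in effector cells and 0.55 in naive adult cells, and naive female array 2 reached into the effector range. Odc1 was higher in effector cells by 0.85 ± 0.22 (SE, n = 6 arrays each), a 1.80-fold difference (limma adjusted p = 0.00711), and by 0.66 to 1.18 under the alternatives, all called. The lowest naive value was that of male array 2, and leaving out single arrays gave 0.68 (without that array) to 0.96 (without naive male array 3).

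Srm encodes spermidine synthase, which adds an aminopropyl group to putrescine. Its level was 8.34 at the lowest, 8.86 at the median and 9.14 at the highest effector array, against 7.03, 7.56 and 7.69 on naive adult arrays. The states were separate, and the mean difference was the largest of the 9 genes at 1.37 ± 0.15 (SE, n = 6 arrays each), a 2.59-fold difference (limma adjusted p = 5.9e-06). Alternatives gave 1.198 to 1.51, all called.

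Oaz1 encodes antizyme 1, and Azin1 the antizyme inhibitor, a relative of ornithine decarboxylase without its enzyme activity. Oaz1 was 10.15, 10.30 and 10.57 at the lowest, median and highest effector array, 10.02, 10.18 and 10.32 at those of naive adults, and 10.25, 9.70 and 10.19 in neonates. All states overlapped, and effector minus naive adults was 0.15 ± 0.12 and not called (adjusted p = 0.38, 95% interval -0.11 to 0.41). Azin1 was 7.19, 7.63 and 7.85 on effector arrays, against 6.34, 6.76 and 6.92 on naive adult arrays, without overlap. It was higher in effector cells by 0.88 ± 0.15 (SE, n = 6 arrays each), a 1.84-fold difference (limma adjusted p = 3.9e-04), and by 0.69 to 1.06 under the alternatives, all called. Antizyme activity is set largely by a polyamine-dependent shift of reading frame, which array signal does not show.

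Sat1 encodes spermidine/spermine acetyltransferase, the enzyme that marks polyamines for oxidation or export. Its level was 7.08 at the lowest, 7.30 at the median and 7.42 at the highest effector array, against 7.31, 7.68 and 7.95 on naive adult arrays, with 1 naive array, male array 3, inside the effector range. It fell by 0.40 on the log2 scale in effector cells, with an SE of 0.13 (n = 6 arrays each, limma adjusted p = 0.0248). The call ended after centring, at -0.26 (adjusted p = 0.148). It also ended without effector female array 2 (-0.35, adjusted p = 0.0675), effector male array 2 (-0.37, 0.0585), naive female array 1 (-0.36, 0.0583) or naive male array 2 (-0.35, 0.0601).

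**Figure D2:**
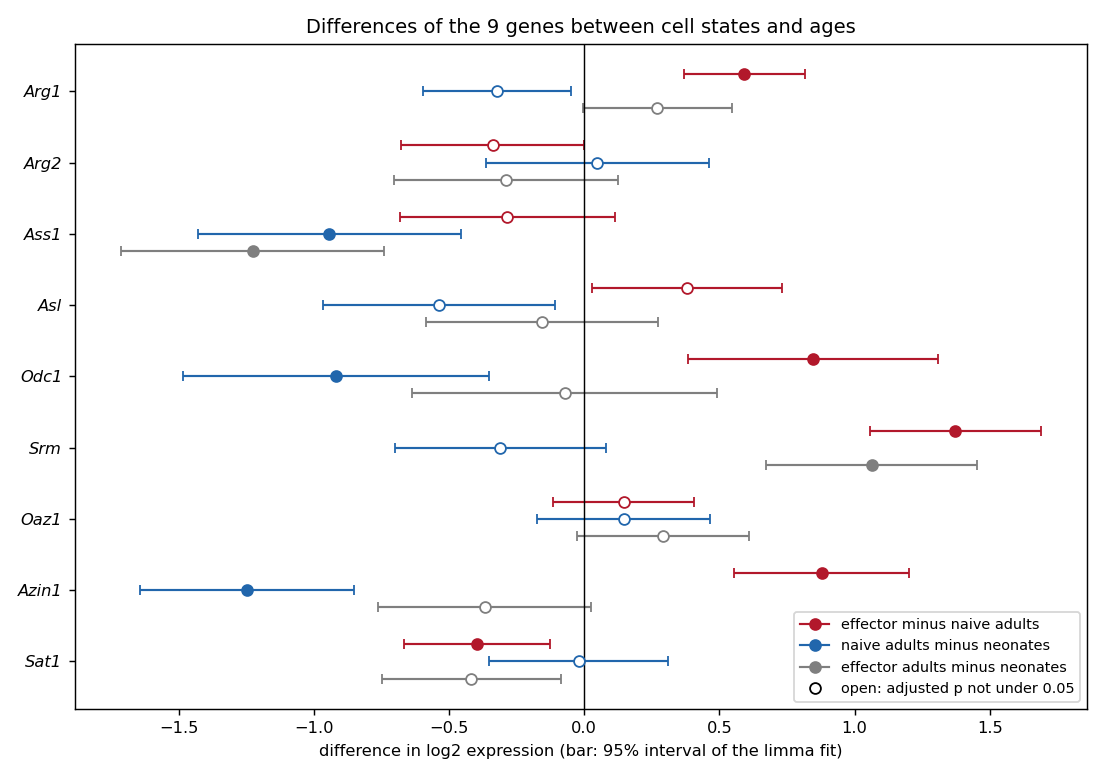
Difference in log2 expression (horizontal axis) of each gene in 3 comparisons, with the 95% interval of the limma fit, and filled points called at an adjusted p under 0.05. Srm, Azin1, Odc1 and Arg1 lie to the right of 0 for effector minus naive adults, and Azin1, Ass1 and Odc1 to the left for naive adults minus neonates.

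The second set of comparisons places neonatal cells beside the adult states. Of the 9 genes, 3 were lower and 0 higher in naive adults than in neonates, where 6.04% of all genes tested were called lower and 4.12% higher. Of the same genes, 1 was higher and 1 lower in effector adults than in neonates, where 14.7% of all genes were called higher and 5.93% lower. The share of higher calls for effector adults against neonates was 71.2% as deposited and 83.6% after centring. The median difference over the 9 genes was -0.32 for naive adults minus neonates, against -0.02 over all genes, and -0.16 for effector adults minus neonates, against 0.03 over all genes. With the filter at percentile 60 the medians over all genes were -0.03 and 0.18. These comparisons share the neonatal arrays with each other, and the naive or effector arrays with the comparison above.

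Azin1 had the largest difference of the 9 genes between naive adults and neonates. It was 8.23, 7.62 and 8.04 in neonates, above all 6 naive adult arrays, and naive adults were lower, with a difference of -1.25 ± 0.19 (SE, n = 6 naive adult and 3 neonatal arrays), 2.37-fold (limma adjusted p = 6.3e-04). This call held in all 27 alternatives, at -1.60 to -1.11. Effector adults overlapped neonates, with a difference of -0.37 ± 0.19 that was not called (adjusted p = 0.175). After a further quantile normalization it was -0.53 and called (adjusted p = 0.0493).

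Odc1 was 8.85, 8.05 and 7.96 in neonates, and naive adults were lower, with a difference of -0.92 ± 0.27, 1.89-fold (limma adjusted p = 0.0401). Neonatal array 1 was the highest of all 15, and naive female array 2 (8.02) overlapped the neonates. The call was near the threshold and ended in 14 of 27 alternatives, with array weights (-0.91, adjusted p = 0.105), with only the arrays compared (-0.92, 0.132) and against naive females alone (-0.67, 0.230) among them. Leaving out neonatal array 1 gave -0.63 (adjusted p = 0.193), naive male array 2 -0.75 (0.0610), naive female array 3 -0.79 (0.0724), naive female array 1 -0.94 (0.0598) and neonatal array 2 -1.04 (0.0521). Leaving out any of the effector arrays except female array 1 kept the difference and gave adjusted p of 0.0505 to 0.0547, since those arrays add to the estimate of the spread. Effector adults minus neonates was -0.07 ± 0.27 (adjusted p = 0.875) with a 95% interval of -0.64 to 0.49.

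Ass1 was higher in neonates than in naive adults, which were lower, with a difference of -0.94 ± 0.23 (limma adjusted p = 0.0169), and than in effector adults, which were lower, with a difference of -1.23 ± 0.23 (limma adjusted p = 0.00178). Since both adult means lay below the second background bound, no fold is given. Against effector adults the call held in all 27 alternatives, at -1.31 to -1.12. Against naive adults it ended without neonatal array 1 (-0.83, adjusted p = 0.0794), without the 3 arrays least correlated with their group (-0.75, 0.0587), with array weights (-0.97, 0.0624), with only the arrays compared (-0.94, 0.0730) and against naive females alone (-0.69, 0.144). The mast cell list and Sftpc, given above, also had their highest levels in neonates, and their part in this difference was not tested.

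Srm was 7.27, 8.00 and 8.03 in neonates, with array 1 inside the naive adult range and the other two above it. Effector adults were higher than neonates by 1.06 ± 0.18, 2.09-fold and without overlap (limma adjusted p = 0.00104), and by 0.81 to 1.27 under the alternatives, all called. Naive adults differed from neonates by -0.31 ± 0.18 and were not called (adjusted p = 0.31). Among neonates the array with the highest Odc1, array 1, had the lowest Srm.

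The remaining members were not called by age. Asl differed by -0.54 ± 0.20 between naive adults and neonates (adjusted p = 0.107) and was called at -0.65 without naive male array 3 (adjusted p = 0.0386). Sat1 was 7.69, 7.40 and 7.96 in neonates and differed by -0.02 ± 0.16 for naive adults minus neonates (adjusted p = 0.953, 95% interval -0.35 to 0.31). For effector adults minus neonates it differed by -0.42 ± 0.16 (adjusted p = 0.0698), and was called without neonatal array 2 (-0.56, adjusted p = 0.0386) and after a further quantile normalization (-0.60, 0.0182). Oaz1 differed by 0.15 ± 0.15 and 0.29 ± 0.15, and Arg2 by 0.05 ± 0.19 and -0.29 ± 0.19, for naive adults and effector adults minus neonates.

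The third question is whether the response differed between the sexes. In females 3 of the 9 genes were higher in effector than in naive cells and 0 were lower, where 10.2% of all genes were called higher and 3.77% lower. In males 4 were higher and 0 lower, where 18.7% were called higher and 6.25% lower. Higher calls made up 73.1% of all calls in females and 74.9% in males as deposited, and 83.9% and 86.8% after centring.

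Srm was 8.34, 8.77 and 8.77 in effector females against 7.69, 7.66 and 7.59 in naive females, a difference of 0.98 ± 0.21 (limma adjusted p = 0.00569). It was 8.95, 9.02 and 9.14 in effector males against 7.53, 7.25 and 7.03 in naive males, a difference of 1.77 ± 0.21 (limma adjusted p = 3.0e-05). The groups were separate in both sexes, and the male effector arrays were all above the female ones. Arg1 was higher by 0.60 ± 0.15 in females and 0.58 ± 0.15 in males (limma adjusted p = 0.0132 and 0.0104). The female Arg1 call ended without effector female array 3 (0.51, adjusted p = 0.0728). Azin1 was higher by 0.92 ± 0.21 in females and 0.84 ± 0.21 in males (limma adjusted p = 0.00972 and 0.0101).

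Odc1 was higher by 1.11 ± 0.31 in males (limma adjusted p = 0.0156) and differed by 0.58 ± 0.31 in females, which was not called (adjusted p = 0.242). Its male arrays were 8.09, 8.30 and 8.31 in effector cells against 7.34, 6.45 and 7.58 in naive cells. Without naive male array 2 the male count dropped to 2, as Odc1 (0.77, adjusted p = 0.0786) and Azin1 (0.66, 0.0513) were no longer called. Odc1 was also lost without effector male array 3 (1.07, adjusted p = 0.0544) and Azin1 without effector male array 1 (0.69, 0.0527). Sat1 differed by -0.55 ± 0.18 in females without overlap of the groups (adjusted p = 0.0547) and by -0.25 ± 0.18 in males (adjusted p = 0.351). The female Sat1 difference was called in 8 of 25 alternatives (adjusted p = 0.0138 to 0.0491), among them the omission of naive male array 3, neonatal array 2 or neonatal array 3. In males Arg2 (-0.70, adjusted p = 0.0233) and Asl (0.74, 0.0312) were called without naive male array 3.

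The test of the difference between the female and male responses called 0 of the 9 genes, and 0% of all genes tested (limma, 866 of 16257 at an unadjusted p under 0.05, and 1 of the 9 genes, Srm). The difference for Srm was -0.79 ± 0.30 (95% interval -1.42 to -0.15, adjusted p = 0.867). For Ass1 it was -0.66 ± 0.37 and for Odc1 -0.53 ± 0.43, with 95% intervals of -1.45 to 0.14 and -1.46 to 0.39. For Arg1 and Azin1 the differences were 0.02 ± 0.21 and 0.07 ± 0.30. None of the 9 genes was called between females and males within effector cells (0.0308% of all genes called, 0 of the 9 at an unadjusted p under 0.05) or within naive cells (0.209% called, 0 of the 9 at an unadjusted p under 0.05). Arg1 differed by 0.29 ± 0.15 in effector and 0.27 ± 0.15 in naive cells for females minus males (limma adjusted p = 0.9998 and 0.576). Its 3 female arrays lay above its 3 male arrays in each state. The Srm arrays also separated by sex, with females lower in effector cells (-0.41 ± 0.21) and higher in naive cells (0.38 ± 0.21). How many of all genes separate in this way was not counted, so nothing is read from it.

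**Figure D3:**
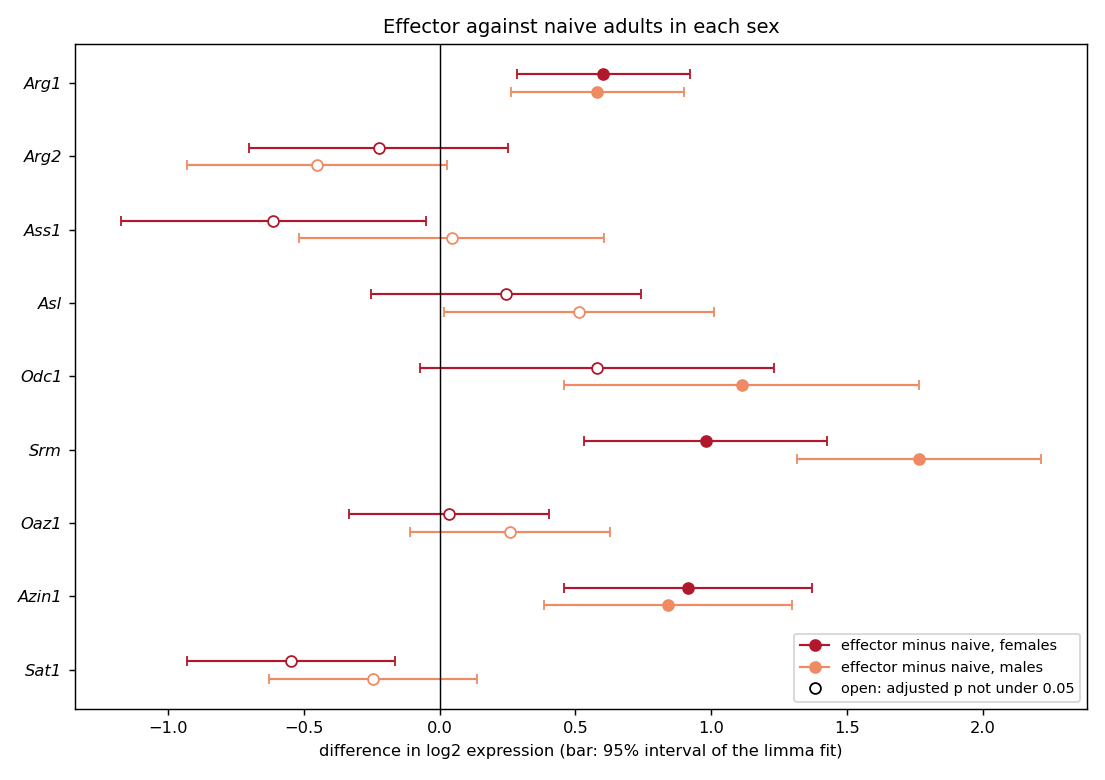
Difference in log2 expression between effector and naive adults (horizontal axis) in females and in males, with 95% intervals of the limma fit, and filled points called at an adjusted p under 0.05. Srm, Arg1 and Azin1 are called in both sexes and Odc1 in males, and the intervals of the sexes overlap for all 9 genes. Overlap is not a test of the difference between the sexes. For Srm that difference was -0.79 (95% interval -1.42 to -0.15, limma adjusted p = 0.867).

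Genes around the same pathway were taken from 7 lists with 56 genes, of which 40 were tested. A further 6 were too dim for the filter, and 10 lacked a feature of their own, among them spermine synthase (Sms) and the decarboxylase Amd1. In effector against naive adults 13 of the 40 were higher and 3 lower, beside 23.7% and 10.9% of all genes, with a median of 0.18. For naive adults against neonates 1 was higher and 6 were lower, beside 4.12% and 6.04% of all genes, with a median of -0.17. For effector adults against neonates 5 were higher and 4 lower, beside 14.7% and 5.93% of all genes, with a median of 0.11. The lists are small, and nothing is read from these counts about a list as a whole.

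Among the transport genes, the arginine transporter Slc7a1 averaged 8.85 ± 0.27 in effector adults, 7.05 ± 0.27 in naive adults and 8.79 ± 0.66 in neonates (SD, n = 6, 6 and 3). It was higher in effector than naive adults by 1.80 ± 0.19 (limma adjusted p = 4.5e-06) and lower in naive adults than in neonates, with a difference of -1.74 ± 0.23 (limma adjusted p = 2.4e-04). Slc7a3, a related transporter, was higher in effector adults by 2.09 ± 0.19, with a naive mean of 3.93 in the background range. Slc7a6 was higher by 1.10 ± 0.20, and Atp13a3, a P-type ATPase that takes up polyamines, by 0.48 ± 0.10, so that 4 of 8 tested transport genes were higher and 0 lower, beside 23.7% and 10.9% of all genes. Atp13a3 was lower in naive adults than in neonates, with a difference of -0.63 ± 0.13 (limma adjusted p = 0.00503).

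Of 4 hypusination genes 3 were higher and 0 lower in effector than in naive adults, beside the same shares of all genes, the eIF5A gene Eif5a by 0.55 ± 0.10, its paralog Eif5a2 by 0.72 ± 0.18 and the deoxyhypusine synthase gene Dhps by 0.55 ± 0.17. Eif5a2 was also lower in naive adults than in neonates, with a difference of -0.83 ± 0.22. In the ornithine and proline list 1 of 4 tested genes was higher and 1 lower in effector than in naive adults, beside 23.7% and 10.9% of all genes. Aldh18a1, which starts proline and ornithine synthesis from glutamate, was higher in effector than in naive adults by 1.46 ± 0.19 (limma adjusted p = 2.8e-05), and Prodh, which degrades proline, fell by 0.53. The naive adult means of Prodh, Slc7a3, Eif5a2 and Azin2 lay below the second background bound of 5.22, so the sizes of their differences are uncertain. For Prodh the direction is uncertain too, since the first background bound was also lower in effector (3.35) than in naive adults (4.07). Whether Prodh fell beyond that was not tested.

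Among further polyamine genes, the spermine oxidase gene Smox was higher in effector than in naive adults by 0.56 ± 0.16 and lower in naive adults than in neonates, with a difference of -0.69 ± 0.19. Azin2, a relative of Azin1, was higher in effector than in naive adults by 0.37 ± 0.12, and Oaz2, a second antizyme gene, was lower in effector adults than in neonates, with a difference of -0.71 ± 0.16. Mtap, which recycles the methylthioadenosine left by spermidine synthesis, was higher in effector than in naive adults by 0.81 ± 0.18 and than in neonates by 0.84 ± 0.22. It was the only 1 of 6 tested methionine salvage genes called in either comparison. Of all genes, 23.7% were called higher and 10.9% lower in the first comparison, and 14.7% and 5.93% in the second. Of 8 tested genes of the urea cycle, nitric oxide and creatine, 0 were called in effector against naive adults (limma, 0 at an unadjusted p under 0.05). Of all genes, 23.7% were called higher there and 10.9% lower. Nos2, the inducible nitric oxide synthase gene that competes for arginine, differed by 0.20 ± 0.24. In the same list 1 of 8 genes, Nos3, was lower in effector adults than in neonates, where 5.93% of all genes were. Its difference was -0.69 ± 0.17 (limma adjusted p = 0.00948). Of 6 tested regulators, Myc, an activator of Odc1 transcription, was higher in effector than in naive adults by 0.74 ± 0.19 (limma adjusted p = 0.00785) and Irf4 by 3.69 ± 0.24, while Cebpb fell by 0.51. Mycn was called lower as well, but its means of 4.10 in effector adults and 4.69 in naive adults lay below the second background bound in both states, so no size is read from it.

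**Figure D4:**
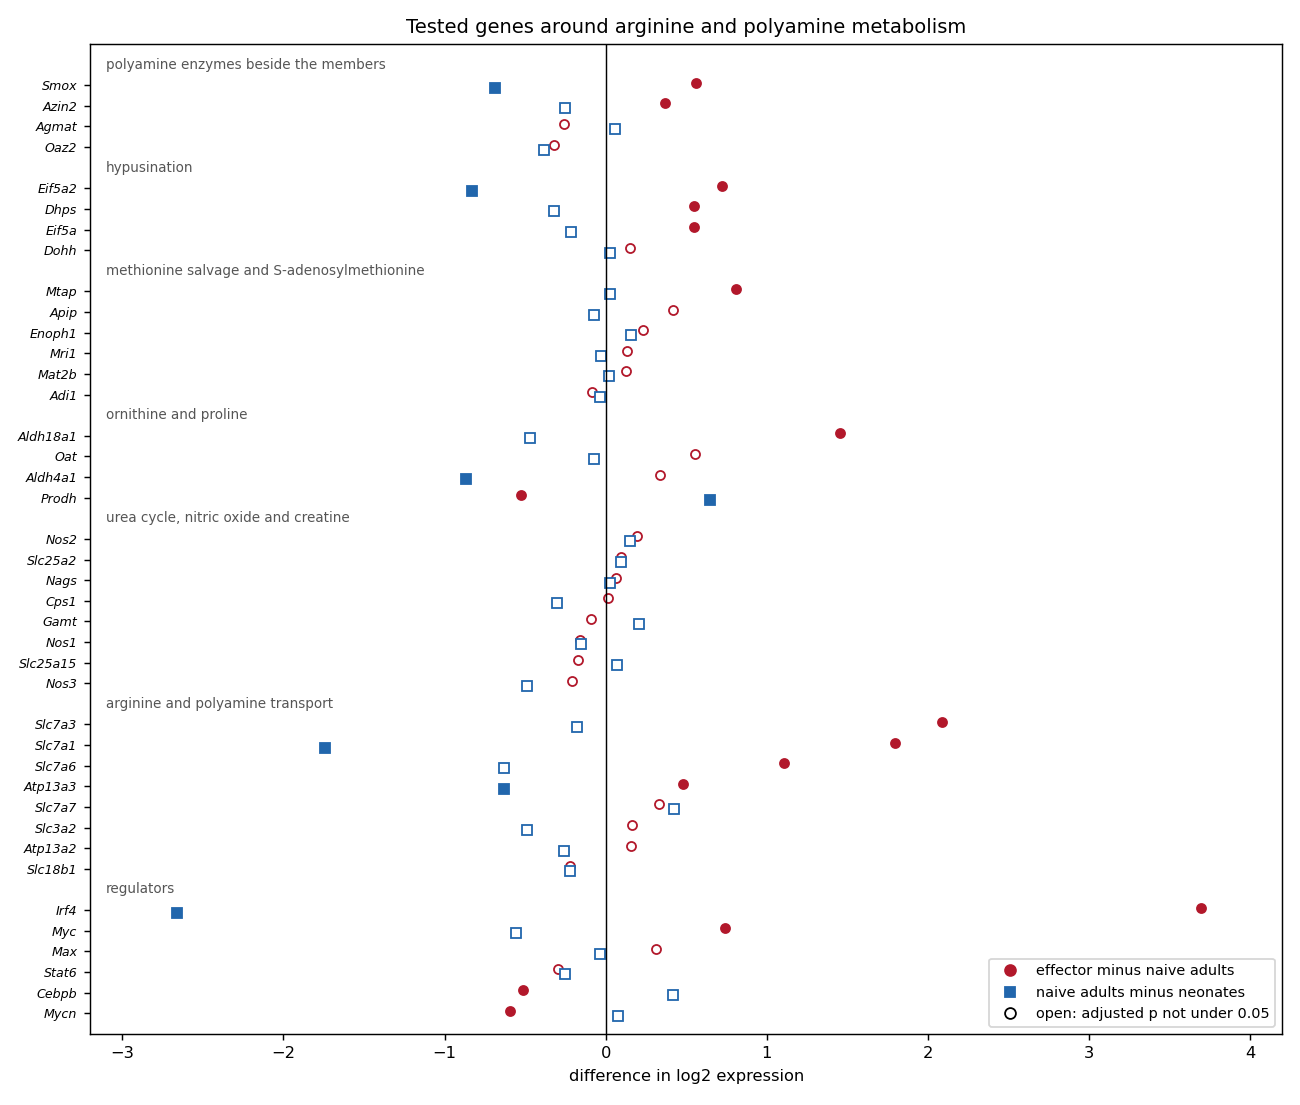
Difference in log2 expression (horizontal axis) of the 40 tested related genes, grouped by list, for effector minus naive adults (circles) and naive adults minus neonates (squares), with filled symbols called at an adjusted p under 0.05. Both comparisons use the naive adult arrays. Slc7a1 lies at 1.80 for effector minus naive adults and at -1.74 for naive adults minus neonates, and the genes of the urea cycle, nitric oxide and creatine list are all open.

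Genes with a pattern like that of Arg1 or Odc1 were ranked by Pearson r over the 15 arrays, which fall into groups, so r mostly describes shared differences between groups. For Arg1 they were Vdr, the vitamin D receptor gene (r = 0.943), St6galnac2 (0.936), Grn, which encodes progranulin (0.934), Epas1, which encodes the hypoxia factor HIF-2 alpha (0.934), and Rbpj, the nuclear effector of Notch (0.927). For Odc1 they were Txnl1 (r = 0.956), the RNA helicase gene Dhx9 (0.945), the chloride transporter gene Clcn5 (0.937), Prkar1a, a regulatory subunit of protein kinase A (0.931), and Plekha2 (0.925). Epas1 averaged 9.88 in effector adults, 7.86 in naive adults and 9.37 in neonates, and Txnl1 averaged 9.57, 8.70 and 9.61 in the same groups.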

How the data were processed

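The deposited table holds log2 expression values. Per the submitters' processing notes, Affymetrix Expression Console and RMA made them, a method that removes background, equalises the distributions of arrays and combines the probes of each feature. The medians of the deposited values still differed between arrays, from 4.44 to 4.64. No version or filter is named there. Of 41345 features, 23521 carried a single symbol in the platform annotation. Features above percentile 40 of their array in 3 or more arrays were used, with the brightest feature standing for a gene, which left 16257 genes. Group means were estimated over the 15 arrays together in limma 3.58.1 (R 4.3.3), with moderated variances. Tests were two-sided, with Benjamini-Hochberg adjustment across those 16257 genes. Each ± on a difference is the SE from limma, and n counts arrays.

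The labels call the arrays biological replicates but name no separate animals or batches. The p-values therefore measure only the spread between these arrays, and how far that reflects separate mice is not known. With 3 arrays per group, precision is limited. The genes and lists were chosen with earlier results of these data known. Related genes are named when called and among the 4 largest differences of their list in a comparison, or among the 2 largest where a list had no call. A few of these are not printed. On simulated data for effector against naive adults, 88 of 100 genes moved by 1 log2 unit and 100 of 100 moved by 2 were recovered. There were 8 false calls among the genes not moved. The noise was normal and independent between arrays with the spread fitted for each gene, and only these genes moved, all upward. The real data had calls in both directions and differences in array scaling, so these figures are not the power or error rate of the real comparison. Replicate numbers recur across groups, but same-numbered arrays deviated from their group means with correlations of -0.11 to 0.0991, and 0 of 30 pairs exceeded 0.1, so arrays were treated as unpaired. The alternatives tried covered the filter, scaling, prior, array weights, replicate block, arrays fitted, the fold threshold and the omission of single arrays.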

Additional observations from a re-analysis of the deposited data

How the results depend on the processing

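Over 72 differences of the 9 genes, 1828 alternative values gave the same outcome, called or not called, in 1773 cases. A call was lost in 29 and gained in 26, and 0 called values changed sign. Most of the 72 differences were not called in the main fit, so most of the unchanged outcomes are differences that stayed uncalled. Among uncalled values, 43 changed sign. With the replicate block, Odc1 for naive adults minus neonates was -0.92 with an adjusted p of 0.0564, and no other call of the 9 genes changed. Asking also for 1 log2 unit left 1 of the 9 genes and 1555 of all genes for effector against naive adults, 0 and 1226 in females, 2 and 1981 in males, 1 and 632 for naive adults against neonates, and 1081 of all genes for effector adults against neonates. Array weights gave 3745 calls among all genes in females, 1 for the difference in response, 11 and 19 between the sexes in effector and naive cells, 705 (and 1 of the 9 genes) for naive adults against neonates and 2068 for effector adults against neonates. Fitting only the arrays compared gave 8 calls between the sexes in effector cells, 8 in naive cells, and 676 (1 of the 9 genes) for naive adults against neonates. For the difference in response, a filter at percentile 60, centring and the replicate block gave 1 call each, and omission of the 3 arrays least correlated with their group (neonate 2, naive males 1 and 3) gave 72, and 381 between the sexes in naive cells. A further quantile normalization called 4 of the 9 genes for effector adults against neonates. With females only among adults, chosen after seeing the data, naive adults against neonates had 935 calls (1 of the 9 genes) and effector adults against neonates 1942. Leaving out single arrays gave 1358 (without effector female 2) to 2515 calls among all genes in females, 2607 (without effector male 3) to 4403 in males (2 to 6 of the 9 genes, 2 without naive male 2), 0 to 8 (without naive male 3) for the difference in response, 16 (without naive female 3) to 99 (without naive male 3) between the sexes in naive cells, 1031 (without neonate 1) to 1856 for naive adults against neonates (1, without neonate 1, to 4 of the 9 genes) and 2061 (without neonate 2) to 3761 for effector adults against neonates. The causes were not tested. Taking each feature on its own gave nothing to run, since each of the 9 genes has 1 feature. Arg2 and Ass1 are limited by signal near background.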

Other observations

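A feature annotated to both Oaz1 and the pseudogene Oaz1-ps was left out because it carries more than a single symbol. Its level averaged 11.86 ± 0.17 in effector adults, 11.67 ± 0.04 in naive adults and 11.77 ± 0.07 in neonates (SD, n = 6, 6 and 3), with ranges of 11.57 to 12.08, 11.63 to 11.73 and 11.69 to 11.82.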
